A study of Mus musculus with 6 samples.

Results

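The genes described here are the enzymes that turn prohormones into hormones in the secretory pathway, with the binding proteins of the convertases. They were chosen by name, with earlier results of these data known. All 7 of them, *Pcsk1*, *Pcsk2*, *Pcsk1n*, *Scg5*, *Cpe*, *Pam* and *Furin*, were found among the 13535 genes of the deposited table. RNA came from beta-cells of wild-type C57BL/6JRj male mice, 12 weeks old, which were sorted by surface markers (the CD49f+ CD81- fraction, after exclusion of CD45+, CD31+ and TER119+ cells), reaggregated for 5 days and sorted again. In pseudo-islets the beta-cells were reaggregated with alpha- and delta-cells, and in pseudo-beta they were reaggregated alone, in RPMI 1640 medium with fetal bovine serum in both cases. There were 3 libraries of each kind, 1 of either kind in each of the experiments numbered 35, 36 and 37. The comparison asks whether the neighbouring endocrine cells change the expression of the processing enzymes in beta-cells.

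Proinsulin is cut at pairs of basic residues inside the maturing granule. The proprotein convertases encoded by *Pcsk1* and *Pcsk2* make the cuts, carboxypeptidase E, encoded by *Cpe*, then trims the exposed basic residues, and the amidating enzyme encoded by *Pam* finishes the C-terminus of peptides such as amylin. Each granule convertase has a small binding protein. ProSAAS, encoded by *Pcsk1n*, inhibits the product of *Pcsk1*, and the product of *Scg5* is needed for the *Pcsk2* product to mature and can also inhibit it. Furin is the related convertase of the trans-Golgi network, which acts on many proteins that are not hormones.

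The sequences upstream of the transcription start are given for 3 of the genes because their transcripts differed in the direction or size of the difference between the groups, with log2 fold changes of 0.43 for *Pcsk1*, 0.20 for *Pcsk2* and -0.41 for *Pcsk1n*. They are from RefSeq on GRCm38.p6 and are read on the plus strand, from chr13:75089607-75089825 for *Pcsk1*, chr2:143545883-143546132 for *Pcsk2* and chrX:7919572-7919821 for *Pcsk1n*. Capitals mark the cAMP response element TGACGTCA and its core TGACG, searched on both strands, where the core also lies within the full element. Printed bases end before the first start given by RefSeq or GENCODE.
Pcsk1: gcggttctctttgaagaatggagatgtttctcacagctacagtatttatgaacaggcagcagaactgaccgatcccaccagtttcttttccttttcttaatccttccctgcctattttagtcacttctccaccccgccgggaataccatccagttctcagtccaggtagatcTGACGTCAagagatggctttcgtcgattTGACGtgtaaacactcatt
Pcsk2: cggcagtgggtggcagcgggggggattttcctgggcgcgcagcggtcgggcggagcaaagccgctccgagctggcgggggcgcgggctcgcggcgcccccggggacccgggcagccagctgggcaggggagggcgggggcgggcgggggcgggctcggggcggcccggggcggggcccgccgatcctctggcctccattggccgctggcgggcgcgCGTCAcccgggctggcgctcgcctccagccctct
Pcsk1n: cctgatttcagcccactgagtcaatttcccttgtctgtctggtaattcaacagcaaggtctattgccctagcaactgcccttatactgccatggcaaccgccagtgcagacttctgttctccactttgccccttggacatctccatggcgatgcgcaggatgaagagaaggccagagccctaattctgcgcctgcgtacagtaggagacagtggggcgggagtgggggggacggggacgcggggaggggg
The full element begins at position -78 from the RefSeq start of *Pcsk1*, and a further core lies at -50. Windows from 250 bases before to 50 bases after the start were matched for 6 of the 7 genes, all but *Cpe*, in 8 windows, and *Pcsk1* was the 1 gene of the 6 with the full element. Among 32851 such windows of all genes, 1.79% held the full element and 20.8% the core. *Pcsk2* had 1 core, *Scg5* had 3, the first of the 2 windows of *Furin* had 2, and no core was in the windows of *Pcsk1n* or *Pam*. A match of letters is a description and does not show that a factor binds there.

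The values are the authors' normalized counts, which total 17994346 to 19635287 in a library. How many reads lie behind them is unknown, so precision is judged from the spread between libraries. A log2 fold change is the difference in log2(value + 1), pseudo-islets minus pseudo-beta, tested with limma, and a gene is called at a p under 0.05 after adjustment over all 13535 genes. The main fit ignores the experiment. Because libraries of one experiment deviated together, a fit with the experiment as a block is added where it alters a call. The 11 beta-cell markers were all in the table, led by *Ins2*. *Gcg* had normalized counts of 1763, 941 and 2094 in pseudo-islets, against 36.1, 14.1 and 0 in pseudo-beta, and *Sst* had between 146 and 210.2 against at most 4.74. The 7 alpha-cell markers in the table, of 12 listed, summed to between 25892 and 33780 in pseudo-islets. In pseudo-beta they summed to between 22984 and 25280, and the other 5 were not analysed here. Most of this sum came from markers other than *Gcg* in both groups, so it does not measure alpha-cell RNA. The 2 PP-cell markers summed to between 658 and 5500.2 against 328 to 2482. Alpha-cells are known to express *Pcsk2*, *Cpe* and *Scg5*, and the part of residual alpha-, delta- or PP-cell RNA in the values below was not tested. In sorted cells sequenced in bulk, a change in the number of contributing cells and a change in RNA per cell cannot be told apart.

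Processing enzyme transcripts covered a wide range of levels. Compared per kilobase of the longest protein-coding transcript, the order over the 6 libraries was *Cpe*, *Scg5*, *Pcsk2*, *Pcsk1n*, *Pcsk1*, *Pam* and *Furin*. *Cpe* had a mean of 17309 ± 6758 normalized counts per kilobase (SD, n = 6), *Scg5* had 12705 ± 2049 (SD, n = 6) and *Pcsk2* had 10637 ± 998 (SD, n = 6). Neighbours among these 3 overlapped in range, with *Cpe* above *Scg5* in 5 of 6 libraries and *Scg5* above *Pcsk2* in 6 of 6. *Pcsk1n* followed with 4222 ± 795 (SD, n = 6) and *Pcsk1* with 2412 ± 471 (SD, n = 6), and their ranges came close, from 3181 upward for *Pcsk1n* and up to 3138 for *Pcsk1*. *Pam* had 366 ± 69.0 (SD, n = 6) and *Furin* had 39.6 ± 13.4 (SD, n = 6), each below its neighbour in 6 of 6 libraries by at least 5.11-fold for *Pam* and 6.52-fold for *Furin*. With merged exons as the length, the order was the same.

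**Figure D1:**
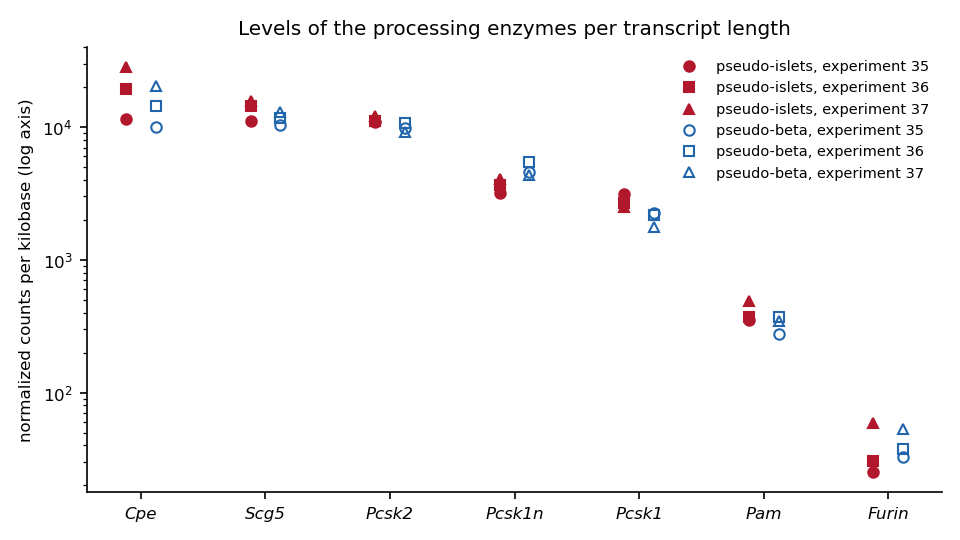
Normalized counts per kilobase of the longest protein-coding transcript (log axis) for the 7 genes, with 1 point per library; filled red symbols are pseudo-islets, open blue symbols are pseudo-beta, and the shape gives the experiment. *Cpe*, *Scg5* and *Pcsk2* overlap at the top, and *Furin* lies lowest, between 25.2 and 58.9.

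Both granule convertase genes had higher values in pseudo-islets than in pseudo-beta in each experiment, *Pcsk1* by more than *Pcsk2*, and *Pcsk1* passed the test with the block. *Pcsk1*, on chromosome 13 of GRCm38 from 75089826 to 75134861 on the plus strand (ENSMUSG00000021587), had normalized counts of 15813, 13399.8 and 12644 in pseudo-islets (experiments 35, 36 and 37), against 11265, 10927 and 8881 in pseudo-beta. The lowest library of pseudo-islets lay above the highest of pseudo-beta. The means were 13952.5 ± 1655 (SD, n = 3) and 10357 ± 1290.0 (SD, n = 3), which is 1.35-fold higher in pseudo-islets, and within experiments the ratios were 1.40, 1.23 and 1.42. This gave a log2 fold change of 0.43 (standard error 0.14, 95% confidence interval 0.13 to 0.73), with an adjusted p = 0.781 in limma without the block. With the replicate block the interval was 0.28 to 0.59 and the adjusted p was 0.028 in limma, within 0.012 to 0.55 over the fits with a block. The adjusted p rose to 0.147 without experiment 35 and to 0.124 without experiment 37, so the call was lost without either. The study selected *Pcsk1* on these same libraries, from genes that passed its own limits of adjusted p and fold change. The value of *Pcsk1* here is therefore not independent evidence of its direction. By qRT-PCR on separate samples, the study also reported that the neighbouring cells regulate *Pcsk1*. It reported too that glucagon raised *Pcsk1* in pseudo-beta, as did Ex4, an agonist of the GLP1 receptor.

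*Pcsk2*, on chromosome 2 from 143546156 to 143816285 on the plus strand (ENSMUSG00000027419), had normalized counts of 51821, 52167 and 57000.3 in pseudo-islets, against 46509, 50409.8 and 43519.5 in pseudo-beta. The groups did not overlap here either, but the gap was narrow, and in experiment 36 the ratio of the 2 libraries was 1.03. The means of 53663 ± 2896 (SD, n = 3) and 46813 ± 3455 (SD, n = 3) differed by 1.15-fold. The log2 fold change of 0.20 (standard error 0.11, interval -0.05 to 0.44) had an adjusted p = 0.969 in limma, and it was not called with the block either. *Pcsk2os1*, an antisense gene that overlaps the start of *Pcsk2*, had 258 to 416 normalized counts. Whether counting used the strand is not given in the sources used here.

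*Furin*, on chromosome 7 from 80388585 to 80405436 on the minus strand (ENSMUSG00000030530), had normalized counts of 109, 132 and 255 in pseudo-islets, against 141, 163 and 229 in pseudo-beta. It was lower in pseudo-islets in experiments 35 and 36 and higher in experiment 37. Its log2 fold change of -0.17 had wide limits (standard error 0.34, interval -0.94 to 0.59, adjusted p = 0.998 in limma). This interval reaches past 1.5-fold in either direction.

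The binding proteins of the 2 granule convertases differed in direction. *Pcsk1n*, on chromosome X from 7919822 to 7924410 on the plus strand (ENSMUSG00000039278), where *Eras* overlaps its end on the opposite strand, had normalized counts of 6975, 7963 and 8948 in pseudo-islets, against 10072.5, 11979.7 and 9618 in pseudo-beta. All 3 libraries of pseudo-islets were below all 3 of pseudo-beta, and the difference was smallest in experiment 37, where the ratio was 0.930, against 0.692 and 0.665 in experiments 35 and 36. The means were 7962 ± 987 (SD, n = 3) and 10557 ± 1253 (SD, n = 3), which gave a log2 fold change of -0.41 (standard error 0.14, interval -0.71 to -0.11, adjusted p = 0.848 in limma). With the block it was not called (adjusted p = 0.098 in limma, 0.019 to 0.61 over the fits with a block). It was called without experiment 37 in the block, at an adjusted p of 0.019.

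*Scg5*, on chromosome 2 from 113776362 to 113829121 on the minus strand (ENSMUSG00000023236), had normalized counts of 13306, 17292 and 19028 in pseudo-islets, against 12611, 14122 and 15727 in pseudo-beta. The groups overlapped, although the library of pseudo-islets was the higher one in each experiment. Its log2 fold change was 0.21 (standard error 0.15, interval -0.12 to 0.55, adjusted p = 0.989 in limma), and it was not called with the block.

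*Cpe*, on chromosome 8 from 64592542 to 64693054 on the minus strand (ENSMUSG00000037852), varied more between experiments than between groups. It had normalized counts of 24257, 40674 and 59681 in pseudo-islets, against 21134, 30654 and 43457 in pseudo-beta. The experiment means on the log2 scale spanned 2.25-fold, whereas the means of the groups, 41538 ± 17728 (SD, n = 3) and 31748 ± 11202 (SD, n = 3), differed by 1.31-fold. Within experiments the ratios were 1.15, 1.33 and 1.37. Without the block the log2 fold change of 0.35 had a standard error of 0.32 and an adjusted p = 0.998 in limma. With the block the standard error was 0.07, the interval 0.21 to 0.50 and the adjusted p was 0.043 in limma, within 0.040 to 0.59 over the fits with a block. It was 0.126 without experiment 36 and 0.184 without experiment 37.

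*Pam*, on chromosome 1 from 97795114 to 98095646 on the minus strand (ENSMUSG00000026335), had normalized counts of 1444, 1516 and 1998 in pseudo-islets, against 1125, 1509 and 1413 in pseudo-beta. The groups overlapped, and in experiment 36 the libraries had almost the same value, with a ratio of 1.00. Its log2 fold change reached 0.29 (standard error 0.18, interval -0.10 to 0.68, adjusted p = 0.973 in limma), and it was not called with the block. Low non-coding genes lie within *Pam*, and the highest of those in the table, *B230216N24Rik*, had 16.1 to 152 normalized counts.

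**Figure D2:**
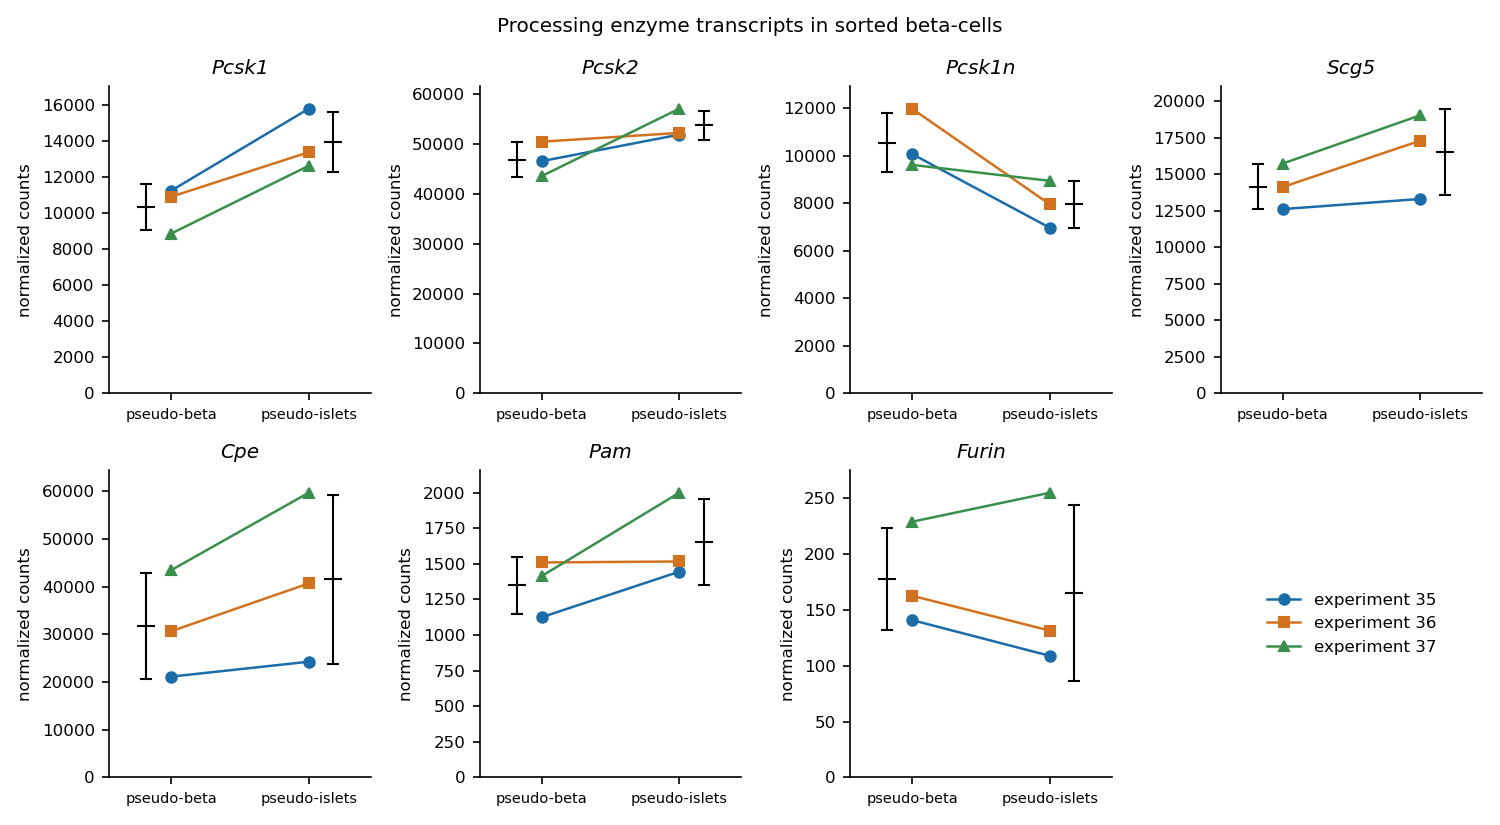
Normalized counts (axis from 0) of each gene in pseudo-beta and pseudo-islets; coloured points are libraries, lines join the libraries of one experiment, and black bars are the mean ± SD of 3 libraries. The lines rise in every experiment for *Pcsk1*, *Pcsk2*, *Scg5*, *Cpe* and *Pam*, fall for *Pcsk1n* and cross in direction for *Furin*.

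Without the block, 0 of the 7 genes passed the test after adjustment in limma, beside 0.0591% of all genes. An unadjusted p under 0.05 was reached by 2 of the 7 (5.40% of all genes and 5.53% of the 4448 with a mean of at least 500), namely *Pcsk1* among the higher genes (2.73%) and *Pcsk1n* among the lower (2.67%). With the block, *Pcsk1* and *Cpe* were called, both higher in pseudo-islets, beside 0.539% of all genes in either direction, 0.436% in this direction and 1.30% of those with a mean of at least 500. An unadjusted p under 0.05 was then reached by 6 of the 7, all but *Furin*, beside 11.9% of all genes and 17.7% of those with a mean of at least 500. Of the 6, 5 were higher (6.69% of all genes) and *Pcsk1n* was lower (5.22%). No fitted change of the 7 passed 1.5-fold.

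The groups did not overlap for 3 of the 7 (10.8% of all genes and 10.7% of those with a mean of at least 500), which were *Pcsk1* and *Pcsk2* on the higher side (5.63%) and *Pcsk1n* on the lower (5.13%). The direction was the same in 3 of 3 experiments for 6 of the 7, beside 33.1% of all genes and 39.3% of those with a mean of at least 500. Of these 6, 5 were higher (18.0% of all genes) and 1 was lower (15.0%). Abundant genes lay slightly above 0 in general. The median log2 fold change was 0.01 over all genes, with 51.4% above 0, and 0.10 over the 332 genes of mean 5000 or more, with 75.6% above 0, while the 7 genes had a median of 0.21. Scaling without the 10 most abundant genes lowered the median of all genes to -0.05 and kept the sign of each of the 7. With that scaling and the block, *Pcsk1*, *Cpe* and also *Pcsk1n* were called, with log2 fold changes of 0.37, 0.30 and -0.47. Among all 13535 genes 82 were then called, 55 higher and 27 lower in pseudo-islets, against 59 and 14 with the block alone. With 1 prior variance for every gene, the block gave 0 calls among the 7 and 0 among all genes in limma, of which 1136 had an unadjusted p under 0.05.

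**Figure D3:**
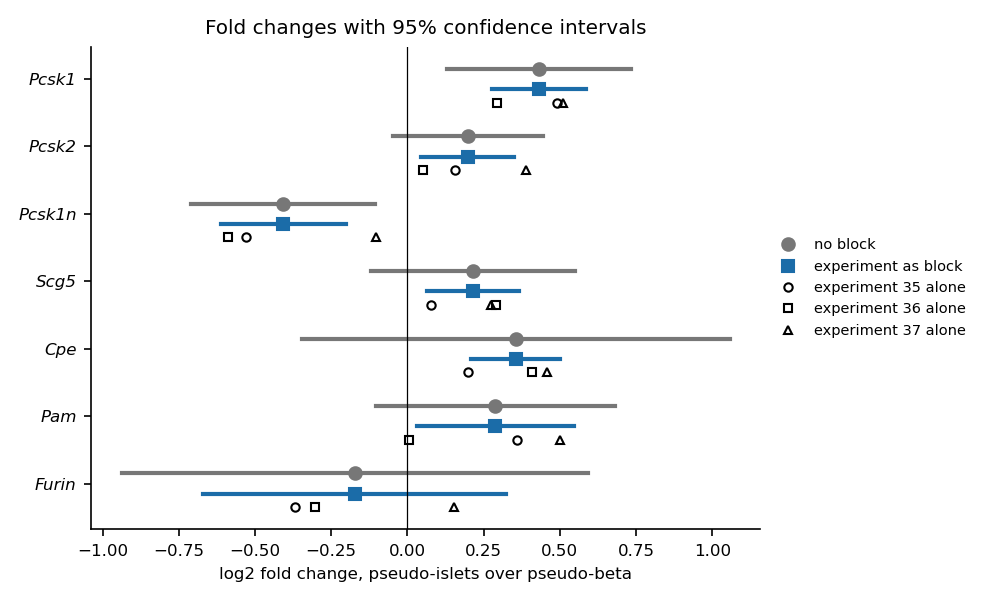
Log2 fold change of pseudo-islets over pseudo-beta for each gene, with bars for 95% confidence intervals from limma without the block (grey circles) and with the experiment as a block (blue squares); open black symbols are the differences within single experiments. The estimates are the same in both fits, and the interval of *Cpe* narrows most, from -0.35 to 1.06 without the block to 0.21 to 0.50 with it.

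The *Pcsk1* to *Pcsk2* ratio, which needs no scaling between libraries, was 0.305, 0.257 and 0.222 in pseudo-islets (experiments 35, 36 and 37), against 0.242, 0.217 and 0.204 in pseudo-beta. The groups overlapped, since pseudo-islets of experiment 37 lay below pseudo-beta of experiment 35. Within experiments the ratio was 1.26-, 1.18- and 1.09-fold higher in pseudo-islets. The mean log2 difference was 0.23, with an SD of 0.11 over the 3 experiments, and it was 0.11 without pseudo-islets of experiment 35 and 0.34 without pseudo-islets of experiment 37. A two-sided exact permutation test over libraries gave p = 0.2, and a two-sided exact sign-flip test within experiments gave p = 0.25, the smallest it can give. Per kilobase, the ratio ran from 0.191 to 0.286, so *Pcsk1* transcripts were fewer than *Pcsk2* transcripts in 6 of 6 libraries.

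The *Pcsk1* to *Pcsk1n* ratio, of a convertase to its inhibitor, separated the groups more widely. It was 2.27, 1.68 and 1.41 in pseudo-islets, against 1.12, 0.912 and 0.923 in pseudo-beta. The groups did not overlap, and the ratio was 2.03-, 1.84- and 1.53-fold higher in pseudo-islets within experiments 35, 36 and 37. The mean log2 difference was 0.84 with an SD of 0.21 over the 3 experiments, with p = 0.1 in a two-sided exact permutation test, which is the smallest that 3 libraries against 3 can give. This ratio joins the members with the highest and the lowest fold change and is not evidence beyond their own values.

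The *Pcsk2* to *Scg5* ratio was 3.89, 3.02 and 3.00 in pseudo-islets, against 3.69, 3.57 and 2.77 in pseudo-beta. It was higher in pseudo-islets in experiments 35 and 37 and lower in experiment 36. The mean log2 difference was -0.02 with an SD of 0.20 over the experiments (p = 1.0, two-sided exact permutation test). Of the 3 ratios compared, none reached p under 0.05, which these exact tests cannot give with 3 libraries in a group.

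**Figure D4:**
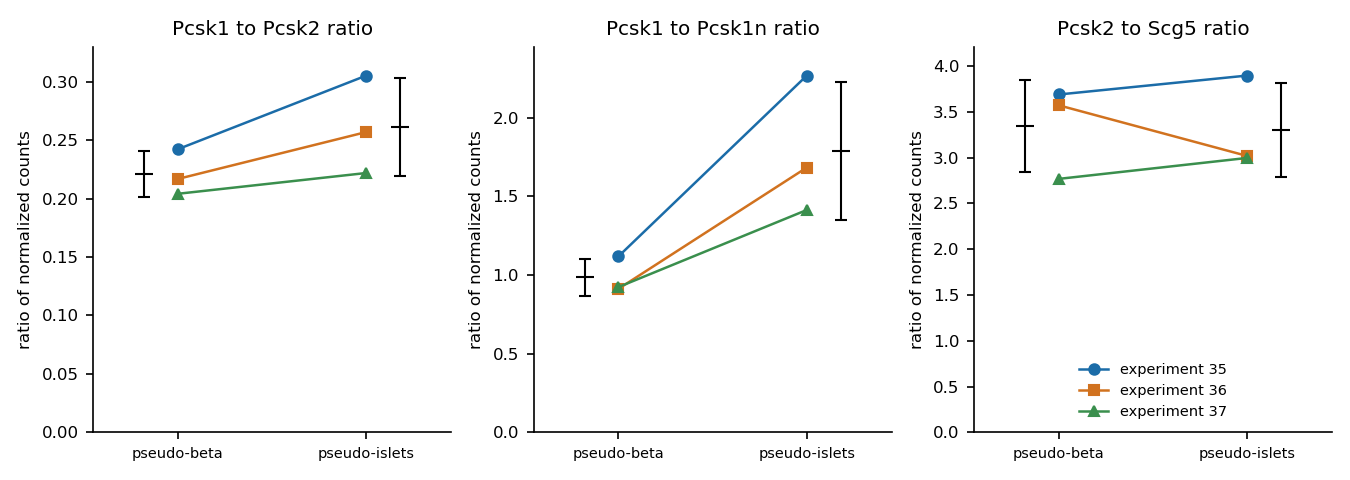
Ratios of normalized counts per library (axes from 0), with lines joining the libraries of one experiment and black bars for the mean ± SD of 3 libraries. The *Pcsk1* to *Pcsk1n* ratio lies between 1.41 and 2.27 in pseudo-islets and between 0.912 and 1.12 in pseudo-beta, whereas the groups overlap for the other ratios.

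The experiments ordered the genes in opposite ways. *Cpe*, *Scg5* and *Furin* had their lowest value in experiment 35 and their highest in experiment 37 in both groups, as did the substrate genes *Ins1*, *Ins2* and *Iapp*. *Pcsk1* had its highest value in experiment 35 and its lowest in experiment 37 in both groups. In all, 4 of the 7 genes had the same order of experiments in both groups, beside 28.7% of all genes and 36.8% of those with a mean of at least 500. The experiment means on the log2 scale spanned 1.94-fold for *Furin*, 1.34-fold for *Scg5*, 1.26-fold for *Pcsk1* and 1.04-fold for *Pcsk2*, which was the steadiest of the 7. What differed between the experiments, beyond their number, is not given in the sources used here.

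Across the 6 libraries, genes among the likest to *Pcsk1*, of 4447 others of mean 500 or more, were *Tmem41b*, *Prlr*, *Pde4b* and *Frk*, with Pearson's r from 0.987 to 0.999. *Prlr*, the prolactin receptor, and *Pde4b*, a cAMP phosphodiesterase, had log2 fold changes of 0.52 and 0.64. The study selected *Prlr*, too, on these libraries. The genes likest to *Pcsk2* were *Oxct1*, *Fam114a1*, *Shisa5*, *Tor1b* and *Chid1*, with r from 0.969 to 0.977. Between the members, r with *Pcsk1* was 0.72 for *Pcsk2*, -0.01 for *Scg5*, -0.20 for *Cpe* and -0.74 for *Pcsk1n*. The libraries share the 2 groups and the 3 experiments, so these values describe the pattern over 6 points and carry no test.

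Other genes of the prohormone processing pathway were taken as 6 lists, with 78 of 86 genes in the table, and their medians stand beside 0.01 for all genes. Many of the listed genes are abundant, and the median was 0.05 over genes of mean 500 or more (63.1% above 0), 0.08 from 1000 (69.5% above 0) and 0.10 from 5000 (75.6% above 0). Among the prohormone and granin substrates, 16 of 17 had a log2 fold change above 0, with a median of 0.22. Without the block 3 were called, *Gcg*, *Sst* and *Pdyn*, beside 0.0591% of all genes. *Gcg* and *Sst* are the hormone genes of alpha- and delta-cells, which were present in pseudo-islets. *Pdyn*, the prodynorphin gene, whose product is cut by the granule convertases, had normalized counts of 949.8, 2308 and 1792 in pseudo-islets, against 156, 314 and 358 in pseudo-beta (log2 fold change 2.60, standard error 0.36, adjusted p = 0.046 in limma, 0.023 to 0.41 over the other fits without a block). It is another gene that the study selected on these libraries. The study also measured *Pdyn* by qRT-PCR on separate samples, and its peptide by ELISA. With the block, *Pdyn* was called at an adjusted p of 2.3e-05 in limma. *Gcg*, *Sst*, *Ppy*, *Pyy* and *Chgb* were called as well, all higher in pseudo-islets, beside 0.539% of all genes. Of these, *Ppy* and *Pyy* are the 2 PP-cell markers. *Ppy* and *Pyy* were not called without experiment 35 in the block, with an adjusted p of 0.068 for each in limma, nor was *Pyy* without experiment 37 (0.137). *Chgb*, the gene of the granule protein chromogranin B, had normalized counts of 22938, 22919 and 25303 in pseudo-islets, against 18056, 18167 and 16221 in pseudo-beta, without overlap. Its log2 fold change of 0.44 had an adjusted p = 0.525 in limma without the block and 0.029 with it, and 0.073 and 0.124 without experiments 35 and 37 in the block. The lowest of this list was *Npy* at -0.15.

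Genes of granule acidification and Golgi calcium had 19 of 22 log2 fold changes above 0, with a median of 0.15. *Atp6v1a*, a catalytic subunit of the proton pump that acidifies granules, had normalized counts of 3761, 3456 and 2886 in pseudo-islets, against 2677, 2385 and 2147 in pseudo-beta. Its groups did not overlap, and it was called with the block (log2 fold change 0.48, standard error 0.09, adjusted p = 0.036 in limma) and not without it (adjusted p = 0.737). Leaving out experiment 35, 36 or 37 ended this call, at adjusted p-values of 0.173, 0.080 and 0.121 in limma. The lowest was *Atp6v0a2* at -0.22.

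For the supply of copper and ascorbate, which the amidating enzyme needs, 5 of 7 genes were above 0, with a median of 0.27. None was called in limma, and an unadjusted p under 0.05 was reached by 3 of 7 without the block, beside 5.40% of all genes, and by 4 of 7 with it, beside 11.9%. *Slc23a2*, an ascorbate transporter, was highest at 0.92 with values of 240.3, 291 and 323 in pseudo-islets, against 110, 106 and 279 in pseudo-beta, and *Cyb561a3* was lowest at -0.12. *Atp7a*, a copper pump, was at 0.50, with an adjusted p = 0.059 in limma with the block.

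Other proprotein convertases had a median of -0.08, with 2 of 5 above 0 and the lowest, *Pcsk4*, at -0.43. Other carboxypeptidases and trimming peptidases had a median of 0.05, from -0.05 for *Cpm* to 0.30 for *Qpct*. Granule maturation and sorting factors had a median of 0.15, with 12 of 19 above 0, from -0.22 for *Gga2* to 0.37 for *Arfip1*. No gene of these 3 lists was called in limma, and an unadjusted p under 0.05 was reached by 0 genes without the block. With it, this p was reached by 0 of 5, 1 of 8 and 2 of 19 genes, beside 11.9% of all genes.

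**Figure D5:**
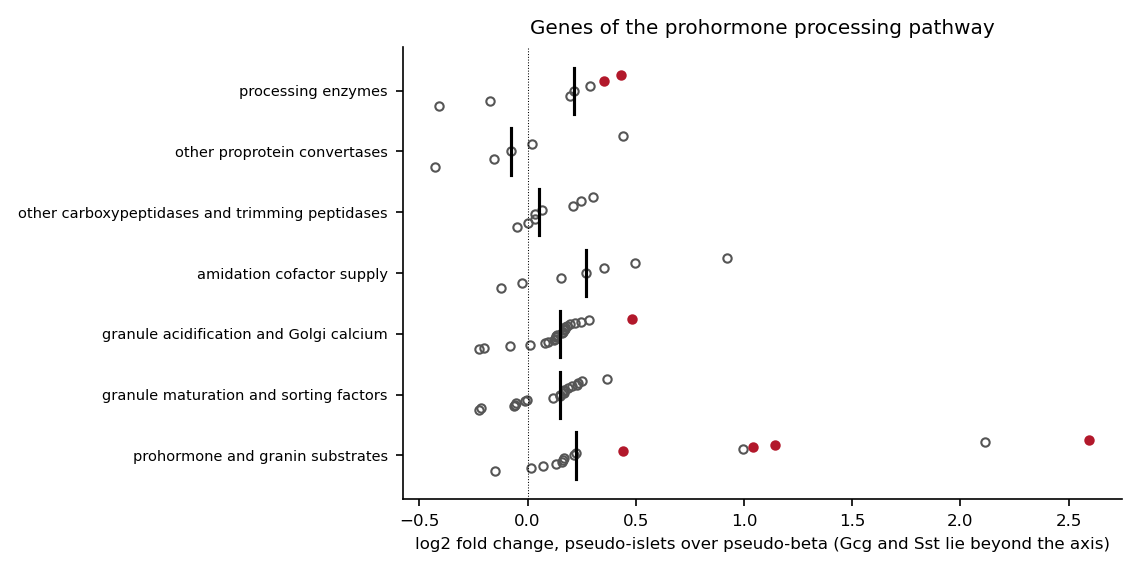
Log2 fold change of pseudo-islets over pseudo-beta for each gene of the processing pathway lists; each circle is a gene, filled red circles have an adjusted p under 0.05 in limma with the experiment as a block, and black bars are list medians, from -0.08 to 0.27. *Gcg* and *Sst* lie beyond the axis, at 7.52 and 6.66, values that depend on the pseudocount.

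Marker genes of other cells moved with the groups beside these results. *Ttr*, which alpha-cells express strongly, was called with the block at a log2 fold change of 0.59, though not without experiment 35 or 37 (adjusted p = 0.145 and 0.163 in limma). *C1qa*, a macrophage marker, was called with the block at 0.97 and with any 1 experiment left out. It was not called with the block and 1 prior variance for every gene (adjusted p = 0.494 in limma). CD45, a marker of blood cells, was in the antibody panel of the sort. Of the immune-cell list, 2 of 8 genes were in the table, and the other was *Cd68* at 3.74 to 18.6 normalized counts. The 2 summed to between 1656 and 2675 in pseudo-islets and between 988 and 1416 in pseudo-beta, nearly all of it *C1qa*. The stromal and acinar lists had 0 genes in the table, the endothelial list had 1 of 8 and the ductal list 3 of 5, with none called. The part of these cells in the values of the processing enzymes was not tested.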

How the data were processed

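RNA from sorted beta-cells of 3 pseudo-islets and 3 pseudo-beta samples was measured. The authors depleted ribosomal RNA from 5 ng of input and sequenced 75-base pairs. Per the labels, the authors used STAR 2.7.6a, RSEM 1.3.1 and DESeq2 1.26.0 on GRCm38. The deposited signal is normalized counts for 13535 genes, all with at least 10 in at least 3 libraries. At most 25.2% to 42.9% of values from 0.3 to 40 lie within 0.02 of a whole multiple of 1 step, so whole reads were not recovered and no count test was run. The authors' own log2 fold changes, score statistic and p-values in the deposited table were not used.

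Values were tested as log2(value + 1) in limma 3.58.1 (R 4.3.3) with a trended prior variance, Benjamini-Hochberg adjustment over all genes and a threshold of 0.05, without a block and with the experiment as block. Experiment numbers come from the sample titles. Deviations from group means correlated at 0.119, 0.121 and 0.325 within experiments and at -0.203 to 0.0922 between them, so the numbers were taken to pair the samples (minimum 0.1). Ratios used exact permutation tests. The fit was run on simulated data, where only its median estimates were required to lie near the true changes. Coordinates and lengths are from GENCODE M21. The genes and lists were chosen with earlier results of these data known. Named are the 7 genes and, of each list, its called genes and its highest and lowest, except items that are not reported here. *Pcsk2os1* and *B230216N24Rik* are named for their overlap, and *Cyb561a3*, *Atp7a* and *Cd68* as list members. Replicates within a group come from separate experiments, and each experiment gave a library of either group. Without the block, p-values in limma rest on the spread between libraries of a group. With the block, they rest on the spread left after the experiment is fitted. Both also draw on the prior variance.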

Additional observations from a re-analysis of the deposited data

How the results depend on the processing

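Beside the fit without a block, the alternatives were the replicate block, pseudocounts of 0.1 and 10, a filter of at least 10 in each library, scaling without the 10 most abundant genes, quantile normalization, 1 prior variance for every gene, and leaving out libraries. The block with 1 prior variance, the block with the filter and merged exons as the length were chosen after seeing the data. In the 12 fits without a block, 0 of the 7 genes were called by limma, and each kept its sign but *Furin*, at -0.53 to 0.075 with a library left out (0.075 without pseudo-islets of experiment 35, 0.025 without pseudo-beta of experiment 37). With a library left out, *Cpe* ran from 0.046 to 0.70, *Scg5* from 0.11 to 0.36 and *Pam* from 0.14 to 0.38, each lowest without pseudo-islets of experiment 37 and highest without pseudo-islets of experiment 35. With the block, *Pcsk1* was called at a log2 fold change of 0.43, also with the filter (0.43), with scaling (0.37) and without experiment 36 (0.50). *Cpe* was called at 0.35, with the filter (0.35), with scaling (0.30) and without experiment 35 (0.43). *Pcsk1n* was called with scaling (-0.47) and without experiment 37 (-0.56). The calls among the 7 were 2 with the block, 2 with block and filter, 3 with block and scaling, 1 without any of the experiments 35, 36 or 37 in the block, and 0 with the block and 1 prior variance. Among the pathway genes, 3 were called without the block, 0 with pseudocount 0.1, 1 each with the filter, scaling or quantiles, 0 with 1 prior variance, and 0 to 3 with a library left out. With the block they were 7, 7 with scaling, 7 without experiment 36, 3 to 7 over the experiments left out, 6 with the filter and 0 with 1 prior variance. Calls among all 13535 genes were 8 without the block, 73 with it, and 0 to 13 with a library left out. Without the block they were 1 with pseudocount 0.1, 6 of 11894 with the filter, and 2 each with scaling, quantiles or 1 prior variance. With the block they were 118 of 11894 with the filter, 82 with scaling and 0 with 1 prior variance. Leaving out experiment 35, 36 or 37 in the block gave 28, 73 and 45 calls among all genes. The *Pcsk2* to *Scg5* log2 difference was -0.15 to 0.060 with a library left out. Merged exons gave *Pcsk2* 6351, *Scg5* 9782, *Pam* 126 and *Furin* 18.7 normalized counts per kilobase. The causes of these changes were not tested.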
